A study of Mus musculus with 40 samples.

Results

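The NRF2 pathway genes described here are 9 genes listed by name: Nfe2l2, which encodes NRF2, its inhibitor Keap1, and the antioxidant and detoxification genes Nqo1, Gclm, Gclc, Hmox1, Txnrd1, Srxn1 and Slc7a11. The choice was made with earlier results of these data known, so counts of called members are not those of a blind choice. They are 9 of the 40213 gene symbols in the count tables, and all 9 passed the filter on low counts in both tissues. mRNA was sequenced in 40 libraries from male C57BL/6N mice with a stated age of 8 weeks. The paper gives this as the age at which the mice were obtained, and tissue was taken later, at the end of the experiment. The midbrain and the spinal cord gave 20 libraries each, 4 in each of 5 groups. MPTP, a toxin that damages dopaminergic neurons and is used to model Parkinson's disease, was injected intraperitoneally at 20 mg/kg, 4 times at 2 h intervals. SUEHP is SU-Eohyeol pharmacopuncture, a herbal extract given as 4 injections at the acupoint GB34.

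Con mice received saline in place of MPTP and saline at GB34, and MPTP-Veh mice received MPTP and saline at GB34. MPTP-SU mice received MPTP and SUEHP at GB34. MPTP-SU+S mice also received a CB1 receptor antagonist (SR141716A in the paper, SR141714A in the labels) at 3 mg/kg, and in MPTP-SU+T the added agent was T0070907, a PPARγ inhibitor, at 5 mg/kg. MPTP was therefore shared by every group except Con, and no group received SUEHP or an antagonist without MPTP. The labels do not say whether the libraries of a group came from separate mice, nor whether both tissues came from the same mice, so the p-values measure the spread between libraries.

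NRF2 is a transcription factor that drives genes against oxidants and electrophiles. At rest KEAP1 binds NRF2 and delivers it to a ubiquitin ligase for degradation. Oxidants modify cysteines of KEAP1, NRF2 then builds up, pairs with small MAF proteins and binds antioxidant response elements near its target genes. In the brain the pathway is best known from astrocytes, which supply neurons with precursors of glutathione. NRF2 is regulated mainly as a protein, and its target mRNAs are commonly used to read its activity.

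Promoter windows of 300 bases, from 250 before to 50 after the annotated start site, were taken from RefSeq (GRCm38.p6) and matched 7 of the 9 members, with 9 windows in all because Txnrd1 has 3. Gclc and Hmox1 had no entry. The core of the antioxidant response element was searched on both strands as TGACNNNGC, where N is any base. It was present in 4 of the 9 member windows, against 4071 of 32851 windows over all genes (12.4%). A second form of the element, TGAGTCAGC, was searched after the windows had been read, and was found in 1 member window and in 136 of all windows (0.414%). The 250 bases before the start site are printed for the 3 members called in the midbrain below, 5′ to 3′ on the strand of the gene, with matches to either form in capitals. They are Nqo1 (chr8:107403206-107403455, minus strand), Gclm (chr3:122245307-122245556, plus strand) and Srxn1 (chr2:152105274-152105523, plus strand).
Nqo1: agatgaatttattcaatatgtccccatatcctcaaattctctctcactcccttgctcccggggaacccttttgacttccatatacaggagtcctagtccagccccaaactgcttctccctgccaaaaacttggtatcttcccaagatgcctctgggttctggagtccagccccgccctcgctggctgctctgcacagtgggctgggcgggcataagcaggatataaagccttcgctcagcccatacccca
Gclm: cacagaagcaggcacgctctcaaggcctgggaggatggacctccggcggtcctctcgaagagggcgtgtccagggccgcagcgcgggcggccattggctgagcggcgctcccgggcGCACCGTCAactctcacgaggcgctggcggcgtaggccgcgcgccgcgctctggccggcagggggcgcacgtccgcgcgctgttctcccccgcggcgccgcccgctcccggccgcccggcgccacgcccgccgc
Srxn1: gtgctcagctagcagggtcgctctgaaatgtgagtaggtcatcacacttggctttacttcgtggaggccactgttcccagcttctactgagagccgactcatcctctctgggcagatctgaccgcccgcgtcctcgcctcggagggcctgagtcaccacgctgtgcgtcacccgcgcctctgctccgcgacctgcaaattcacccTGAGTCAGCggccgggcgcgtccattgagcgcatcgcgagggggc
The Nqo1 stretch held neither form, which says only that these letters are not in this window. The Gclm match lay on the opposite strand, starting at position -134 relative to the start site. Srxn1 held TGAGTCAGC at position -45, on the strand of the gene, and a TGACNNNGC match on the opposite strand at position 28, past the start site. Nfe2l2 and the second Txnrd1 window each held 1 match, at positions -240 and -92, shown here with flanking bases.
Nfe2l2: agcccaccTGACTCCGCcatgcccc
Txnrd1: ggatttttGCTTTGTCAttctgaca
Keap1 and Slc7a11 had no match to either form in their windows.

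Midbrain libraries totalled 11958200 to 16639823 estimated counts, and spinal cord libraries 14642808 to 16615378. The labels of the tissues matched their markers: Slc6a3, the dopamine transporter, ranged from 16.8 to 124 CPM (counts scaled to the library's size) in the midbrain and reached at most 0.273 CPM in the spinal cord, whereas Hoxb8, a posterior Hox gene, ranged from 146 to 225 CPM in the spinal cord and reached at most 0.0836 CPM in the midbrain. MPTP-Veh replicate 4 of the midbrain stood apart. Its mitochondrially encoded genes took 1.35% of counts, against 9.92% to 17.5% in the other 19 midbrain libraries. Its summed red blood cell markers reached 2529 CPM, against 212.8 to 402.1 CPM in the others, and its summed oligodendrocyte markers reached 35620 CPM, against at most 14470 CPM. Results that rest on this library are therefore given with and without it. Other libraries also differed from their groups, by the chi-square per gene between 2 libraries. For midbrain MPTP-Veh replicate 1 it was 69.9 and 108 against replicates 2 and 3, which gave 13.2 between them. For replicate 4 it was 289 to 327. In the spinal cord MPTP-SU+T replicate 1 gave 114 to 124, where its group otherwise gave 4.57 to 4.84. Values without MPTP-Veh replicate 4 still include replicate 1.

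To show how the 9 genes compare in level, CPM was divided by the length in kb of the longest annotated transcript of each gene. The transcripts expressed in these tissues were not determined, so the order depends on this choice. In the midbrain the medians over 20 libraries were 29.5 CPM per kb for Srxn1, 17.8 for Gclc, 16.9 for Txnrd1, 9.73 for Keap1 with Nfe2l2 just below it, 5.22 for Slc7a11, 4.64 for Gclm, 3.05 for Nqo1 and 2.37 for Hmox1. Without MPTP-Veh replicate 4, the ranges of neighbours in this order overlapped except at 2 places: Srxn1 (27.3 to 39.4) lay above Gclc (14.6 to 22.2), and every Txnrd1 value lay above Keap1 (7.78 to 12.0). In the spinal cord Srxn1 again had the highest median (27.5 CPM per kb), and Slc7a11 (2.71) replaced Hmox1 (3.17) as the lowest. The counts behind the less abundant genes were small: a midbrain library held between 35 and 88 counts of Nqo1.

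The comparison of MPTP-SU with MPTP-Veh asks what SUEHP changed in MPTP-treated mice. In the midbrain, Nqo1, Gclm and Srxn1 rose, by 1.54-fold, 1.62-fold and 1.25-fold, and the other 6 members did not pass the test by edgeR, one of which, Gclc, passed it by both other tools run. The 3 risen genes encode a quinone reductase, the modifier subunit of the enzyme that starts glutathione synthesis, and an enzyme that repairs oxidised peroxiredoxins. A gene was called at a Benjamini-Hochberg adjusted p-value below 0.05 over all genes tested, with edgeR's quasi-likelihood test. By this rule 7.38% of the 16629 genes tested were called higher and 20.1% were called in either direction. With the study's further threshold of 1.5-fold, 2 members (Nqo1 and Gclm) were called, against 13.5% of all genes. DESeq2 and limma-voom with quality weights each called 4 members, Nqo1, Gclm, Srxn1 and Gclc, where they called 27.5% and 20.5% of all genes. With MPTP-Veh replicate 4 left out, edgeR called 2 (Nqo1 and Gclm), against 14.6% of genes.

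Nqo1, which reduces quinones in a step that avoids semiquinone radicals, measured 4.97, 4.77, 5.12 and 5.20 CPM in the Con midbrain and 3.11, 3.60, 3.55 and 3.29 CPM in MPTP-Veh. In MPTP-SU it measured 5.50, 4.92, 5.11 and 5.43 CPM. All 4 MPTP-Veh libraries therefore lay below every Con and every MPTP-SU library, and this held for MPTP-Veh replicates 1 to 3 alone. The log2 fold change of MPTP-SU against MPTP-Veh was 0.62 (SE 0.12, 95% interval 0.38 to 0.87, adjusted p = 0.00553, edgeR), and 0.61 without MPTP-Veh replicate 4 (adjusted p = 0.0031). Of the 9 members, Nqo1 was the only one with a standard deviation in MPTP-Veh (0.229 CPM) that the library apart did not widen, since its 3.29 CPM lay between the other values.

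Gclm, the modifier subunit of glutamate-cysteine ligase, measured 24.1, 22.1, 21.3 and 23.1 CPM in Con and 16.2, 19.4, 21.1 and 11.5 CPM in MPTP-Veh. It measured 30.9, 26.0, 30.8 and 23.6 CPM in MPTP-SU. The MPTP-SU libraries lay above all MPTP-Veh libraries, of which the lowest was replicate 4. The log2 fold change was 0.70 (SE 0.14, 95% interval 0.40 to 1.00, adjusted p = 0.00793, edgeR), 0.55 without that replicate (adjusted p = 0.0022), and 0.35 after a trend on GC content and transcript length was removed (adjusted p = 0.030). Gclc, the catalytic subunit of the same enzyme, measured 56.5, 59.0, 66.8 and 60.1 CPM in Con, 50.0, 55.3, 55.2 and 27.6 CPM in MPTP-Veh, and 75.5, 70.4, 61.7 and 51.9 CPM in MPTP-SU. The MPTP-SU and MPTP-Veh ranges of Gclc overlapped through MPTP-SU replicate 4, and the log2 difference of 0.46 (SE 0.17) missed the threshold by edgeR (adjusted p = 0.0612). It passed it by DESeq2 (0.46, adjusted p = 0.0393) and by limma-voom with quality weights (0.31, adjusted p = 0.0407). By edgeR it was 0.28 without MPTP-Veh replicate 4 (adjusted p = 0.12), and it passed when MPTP-Veh replicate 2 (0.55, adjusted p = 0.0383), MPTP-Veh replicate 3 (0.55, adjusted p = 0.0365) or MPTP-SU replicate 4 (0.56, adjusted p = 0.0471) was left out.

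Slc7a11, the subunit of the cystine/glutamate exchanger that brings in cystine for glutathione synthesis, measured 49.6, 49.3, 45.7 and 50.1 CPM in Con, 32.4, 45.1, 45.8 and 19.9 CPM in MPTP-Veh, and 57.2, 53.5, 52.1 and 38.0 CPM in MPTP-SU. Its ranges in MPTP-Veh and MPTP-SU overlapped. Its log2 difference was 0.48 (SE 0.24, adjusted p = 0.133, edgeR), 0.29 without MPTP-Veh replicate 4 (adjusted p = 0.372) and 0.02 after the trend on GC content and length was removed. At 9223 bases Slc7a11 has the longest transcript of the 9 members and, at 40.7%, the lowest GC content.

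Srxn1, sulfiredoxin, measured 76.8, 81.3, 76.8 and 80.8 CPM in Con and 79.5, 81.6, 77.0 and 70.4 CPM in MPTP-Veh. In MPTP-SU it measured 85.7, 95.1, 105.0 and 101.0 CPM. The MPTP-SU libraries lay above all 8 libraries of the other 2 groups, which overlapped each other. The log2 fold change against MPTP-Veh was 0.33 (SE 0.10, 95% interval 0.11 to 0.54, adjusted p = 0.0338, edgeR). Without MPTP-Veh replicate 4 it was 0.29 and missed the threshold (adjusted p = 0.0522), and it also missed it without MPTP-SU replicate 2, 3 or 4 (adjusted p = 0.0723, 0.0845 and 0.0641). Scaled by library size alone, it was 0.29 and missed it too (adjusted p = 0.117, edgeR). Fits of 8 and 7 libraries alone also missed it (adjusted p = 0.227 and 0.0698). It passed after the trend on GC content and length was removed (0.46, adjusted p = 0.0110, edgeR).

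Txnrd1, cytosolic thioredoxin reductase, measured 54.6, 62.3, 68.1 and 62.1 CPM in Con, 54.5, 56.9, 57.5 and 39.1 CPM in MPTP-Veh, and 54.8, 61.5, 64.4 and 63.1 CPM in MPTP-SU. The 3 groups overlapped, and the log2 difference of MPTP-SU from MPTP-Veh was 0.23 (SE 0.11, adjusted p = 0.124, edgeR). It was 0.11 without MPTP-Veh replicate 4.

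Nfe2l2 itself measured 22.4, 22.8, 22.7 and 25.7 CPM in Con, 16.4, 20.7, 21.9 and 6.12 CPM in MPTP-Veh, and 23.3, 22.1, 21.7 and 19.1 CPM in MPTP-SU. Keap1 measured 36.7, 37.4, 35.3 and 30.7 CPM in Con, 32.3, 38.4, 35.0 and 83.1 CPM in MPTP-Veh, and 28.1, 31.4, 40.4 and 42.8 CPM in MPTP-SU. For both regulators the library apart lay far outside the others of its group, with Nfe2l2 low and Keap1 high. The log2 differences of MPTP-SU from MPTP-Veh were 0.40 for Nfe2l2 (SE 0.23, adjusted p = 0.208) and -0.40 for Keap1 (SE 0.23, adjusted p = 0.204), and without that library they were 0.13 and 0.02 (adjusted p = 0.47 and 0.95, edgeR).

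Hmox1, haem oxygenase 1, which breaks down haem and is a widely used NRF2 target, measured 5.03, 4.00, 3.48 and 5.02 CPM in Con, 3.97, 4.06, 3.74 and 6.40 CPM in MPTP-Veh, and 3.42, 3.35, 3.54 and 3.45 CPM in MPTP-SU. It was the only member whose MPTP-SU libraries all lay below the MPTP-Veh libraries, where 11.3% of all genes did so. Its log2 difference was -0.39 (SE 0.20, adjusted p = 0.148, edgeR) and -0.19 without MPTP-Veh replicate 4. Separation in the other direction was seen for Nqo1, Gclm and Srxn1, against 10.6% of all genes.

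Over the 9 members, 7 log2 differences were above 0, with a median of 0.40 against 0.0007 over all genes. Without MPTP-Veh replicate 4 the 9 differences ran from -0.19 for Hmox1 to 0.61 for Nqo1, with Gclc, in the middle, at 0.28. Since midbrain tissue was sequenced in bulk, fewer cells of a type and less RNA per cell cannot be told apart. Summed astrocyte markers (8 genes) ranged from 2381 to 2544 CPM in MPTP-Veh, below Con (2732 to 2939) and MPTP-SU (2575 to 2992). Of these 8 markers 0 were called higher and 2 lower in MPTP-SU than in MPTP-Veh, where 20.1% of all genes were called. Without MPTP-Veh replicate 4 the counts were 2 higher and 0 lower, where 14.6% of all genes were called. Summed choroid plexus markers also lay lower in MPTP-Veh (153.7 to 392.5 CPM) than in MPTP-SU (429.2 to 493.3 CPM), with 0 of 7 called. Both separations from MPTP-SU depended on the scaling. With CPM on total counts alone, MPTP-SU replicate 4 (astrocytes 2380, choroid plexus 396.8 CPM) lay below MPTP-Veh replicate 2 (2632 and 406.2 CPM). On that scaling the choroid plexus markers ranged from 396 to 1935 CPM in Con. Without MPTP-Veh replicate 4, 4 of these 7 markers were called lower in MPTP-SU than in Con, where 15.7% of all genes were called. The part of these cell types and of the library apart in the members' differences was not tested, beyond the values without that library.

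**Figure D1:**
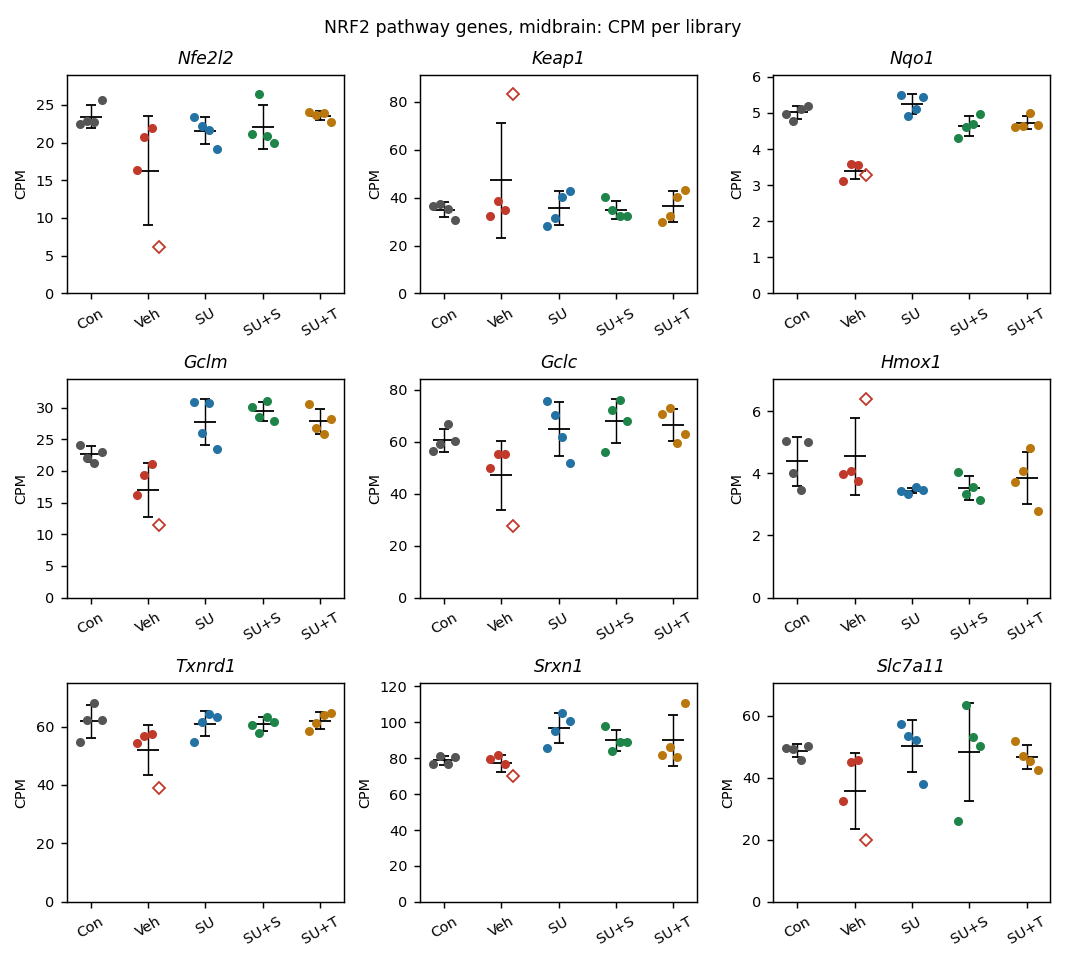
CPM of the 9 NRF2 pathway genes in each midbrain library (points, 4 per group), with the group mean and SD as bars and the prefix MPTP- left off the group names. MPTP-Veh replicate 4 is the open diamond. Nqo1 lies at 3.11 to 3.60 CPM in MPTP-Veh and at 4.30 CPM or above in every other library, and Keap1 reaches 83.1 CPM in the open diamond.

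**Figure D2:**
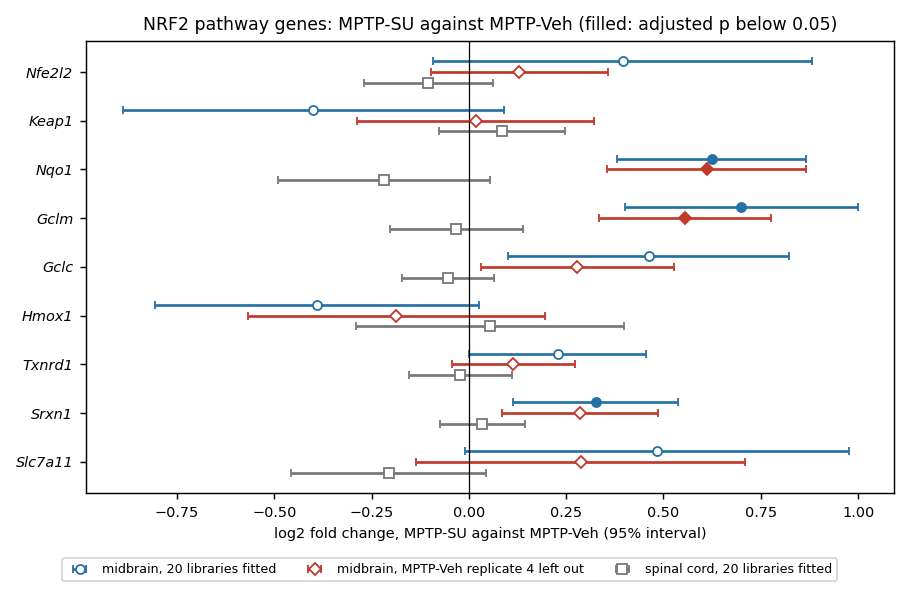
Log2 fold change of MPTP-SU against MPTP-Veh with its 95% interval for each member, in the midbrain with all 20 libraries (circles), in the midbrain without MPTP-Veh replicate 4 (diamonds) and in the spinal cord (squares). Filled symbols have an adjusted p below 0.05: Nqo1, Gclm and Srxn1 with 20 midbrain libraries, Nqo1 and Gclm without the replicate, and 0 members in the spinal cord.

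The comparison of MPTP-Veh with Con asks what MPTP changed. In the midbrain 0 of the 9 members were called by edgeR, with 5 at an unadjusted p below 0.05, where 23.7% of all genes were, and 3 of 16629 genes (0.018%) were called. DESeq2 and limma-voom with quality weights each called 1 member, Nqo1, where they called 3.79% and 1.42% of all genes. EdgeR called Nqo1 (-0.59, adjusted p = 0.0432) and Gclm (-0.53, adjusted p = 0.0441) without MPTP-Veh replicate 3, where it called 7.73% of genes. The Nqo1 log2 difference from Con was -0.56 (SE 0.12, 95% interval -0.80 to -0.32, adjusted p = 0.0931, edgeR), and -0.55 without MPTP-Veh replicate 4 (adjusted p = 0.096). The 4 MPTP-Veh libraries lay below all Con libraries for Nfe2l2, Nqo1, Gclm and Gclc, a separation that 6.03% of all genes showed.

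For Gclm, Nfe2l2 and Gclc the log2 differences were smaller without the library apart. Gclm went from -0.40 (adjusted p = 0.136) to -0.26 (adjusted p = 0.33), and Nfe2l2 from -0.51 (adjusted p = 0.192) to -0.25 and Gclc from -0.36 (adjusted p = 0.207) to -0.18. The remaining members measured -0.44 for Slc7a11, -0.25 for Txnrd1, -0.03 for Srxn1, 0.04 for Hmox1 and 0.43 for Keap1, with edgeR adjusted p-values from 0.183 to 0.904. Without that library Slc7a11 was at -0.24, Txnrd1 at -0.13, Srxn1 at 0.01, Hmox1 at -0.16 and Keap1 at 0.01, with adjusted p-values from 0.498 to 0.990, so the sign of Hmox1 and of Srxn1 turned.

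MPTP-SU was also set against Con, which shares the MPTP-SU libraries with the comparison above. In the midbrain 0 members were called by edgeR and by DESeq2, with 2 at an unadjusted p below 0.05, against 1.25% of genes called by edgeR and 16.1% at an unadjusted p below 0.05. These were Srxn1, 0.29 above Con on the log2 scale (SE 0.10, 95% interval 0.08 to 0.50, adjusted p = 0.152), and Gclm, 0.30 above Con (SE 0.14, adjusted p = 0.309). Limma-voom with quality weights called these 2 members, where it called 20.5% of all genes. When MPTP-Veh replicate 4 was left out of the model, which shares its estimate of spread over the groups, edgeR called both (Srxn1 adjusted p = 0.031, Gclm adjusted p = 0.041), against 15.7% of genes. Nqo1 differed from Con by 0.06.

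The antagonist groups ask whether the response to SUEHP depends on CB1 or PPARγ. Adding either agent to SUEHP gave 0 called members in the midbrain, and 0 of 9 at an unadjusted p below 0.05, by edgeR, DESeq2 and limma-voom. Among all genes edgeR called 0 (0.0%) for each antagonist, with 274 and 283 genes at an unadjusted p below 0.05 for MPTP-SU+S and MPTP-SU+T, and DESeq2 called 0 and 1. Nqo1 measured 4.30, 4.61, 4.69 and 4.97 CPM in MPTP-SU+S and 4.61, 4.65, 4.99 and 4.67 CPM in MPTP-SU+T. These values overlapped those of MPTP-SU, with log2 differences of -0.17 (95% interval -0.41 to 0.06) and -0.15 (-0.38 to 0.09).

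Gclm measured 30.1, 28.5, 31.1 and 27.9 CPM in MPTP-SU+S and 30.5, 26.8, 25.9 and 28.1 CPM in MPTP-SU+T. Its log2 differences from MPTP-SU were 0.08 (95% interval -0.21 to 0.37) and 0.00 (-0.29 to 0.30), so a loss larger than 0.29 lay outside either interval. Srxn1 measured 97.7, 84.0, 89.1 and 89.0 CPM in MPTP-SU+S and 81.8, 86.5, 81.0 and 110.9 CPM in MPTP-SU+T. It differed from MPTP-SU by -0.10 (-0.32 to 0.11) with each agent. For Srxn1 these intervals include the loss of most of the 0.33 by which MPTP-SU exceeded MPTP-Veh.

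Against MPTP-Veh, 2 members (Nqo1 and Gclm) were called higher in each antagonist group, where 1.82% (MPTP-SU+S) and 1.03% (MPTP-SU+T) of genes were called higher. These comparisons share the MPTP-Veh libraries with that of MPTP-SU. In MPTP-SU+S Nqo1 was 0.45 higher on the log2 scale (SE 0.12, adjusted p = 0.0301) and Gclm 0.78 higher (SE 0.14, adjusted p = 0.00763). In MPTP-SU+T Nqo1 was 0.48 higher (SE 0.12, adjusted p = 0.0379) and Gclm 0.70 higher (SE 0.14, adjusted p = 0.0236, edgeR). Without MPTP-Veh replicate 4 these 4 adjusted p-values were 0.036, 0.0014, 0.034 and 0.0069. Without MPTP-SU+S replicate 2, 3 or 4 Nqo1 missed the threshold (0.46, 0.44 and 0.42 on the log2 scale, edgeR adjusted p = 0.0837, 0.0872 and 0.0820). It also did so without MPTP-SU+T replicate 1, 2, 3 or 4, whichever was left out (0.49, 0.49, 0.44 and 0.48 on the log2 scale, edgeR adjusted p = 0.102, 0.0956, 0.0541 and 0.110). Gclm missed it without MPTP-SU+T replicate 1, 2 or 4 (0.0921, 0.0717 and 0.101), with log2 differences from 0.66 to 0.72. Over all genes the number called also fell in these fits, from 1389 to between 94 and 236 for MPTP-SU+S and from 901 to between 3 and 673 for MPTP-SU+T.

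Gclc measured 56.2, 72.1, 75.9 and 68.0 CPM in MPTP-SU+S and 70.7, 72.9, 59.6 and 62.8 CPM in MPTP-SU+T. All 8 lay above the MPTP-Veh libraries, and the differences missed the threshold by edgeR (0.53 and 0.50 on the log2 scale, adjusted p = 0.0578 and 0.0718). They passed it by DESeq2 (adjusted p = 0.0258 and 0.0374, where 17.6% and 17.1% of genes were called) and by limma-voom with quality weights (0.40 and 0.38, adjusted p = 0.00541 and 0.0106, where 19.5% and 15.5% of genes were called). Without MPTP-Veh replicate 4 edgeR gave 0.35 and 0.31 (adjusted p = 0.0803 and 0.132). The differences passed by edgeR without MPTP-Veh replicate 2 (0.0348 and 0.0419) or 3 (0.0317 and 0.0387). Separation above MPTP-Veh was seen for Nqo1, Gclm, Gclc, Txnrd1 and Srxn1 in MPTP-SU+S (8.85% of all genes) and for Nfe2l2, Nqo1, Gclm, Gclc and Txnrd1 in MPTP-SU+T (7.97%).

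Slc7a11 was uneven in MPTP-SU+S, with 26.2, 63.5, 53.2 and 50.2 CPM, against 51.9, 47.0, 45.5 and 42.6 CPM in MPTP-SU+T. The library at 26.2 CPM also had the lowest summed leptomeningeal markers of the 20 midbrain libraries (86.38 CPM, against 321.4, 214.1 and 254.9 CPM in the rest of its group), and a part of meningeal tissue in this value was not tested. Nfe2l2 ranged from 19.9 to 26.4 CPM in MPTP-SU+S and from 22.7 to 24.0 CPM in MPTP-SU+T. Keap1 ranged from 32.2 to 40.3 and from 29.9 to 43.4 CPM, Txnrd1 from 57.7 to 63.3 and from 58.3 to 64.6 CPM, and Hmox1 from 3.15 to 4.03 and from 2.79 to 4.82 CPM.

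The members were then set among 7 lists of genes of the same pathway, which hold 69 tested genes. In the midbrain, MPTP-SU against MPTP-Veh, 6 of the 69 were called higher and 9 lower, and the median log2 difference was -0.14. Without the 9 members, 3 of 60 were called higher and 9 lower, and when MPTP-Veh replicate 4 was also left out the counts were 4 higher and 4 lower, with a median of -0.01. These 12 and 8 of 60 genes called stand beside 20.1% and 14.6% of all genes, so the share called among the other genes of the pathway was near that of all genes. The regulators of NRF2 (12 genes) had 0 called higher and 1 lower, the related factor Nfe2l1 (-0.52, adjusted p = 0.040, edgeR), which was not called without MPTP-Veh replicate 4.

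Among 15 genes of glutathione synthesis and use, Gclm was the 1 called higher and 3 were called lower. All 3 were glutathione S-transferases, which couple glutathione to electrophiles: Gsta4 (-0.70), Gstp1 (-0.56) and Gstm1 (-0.52). Without MPTP-Veh replicate 4, 1 was called higher and 2 lower. The thioredoxin system (8 genes) had 2 called higher and 0 lower: Srxn1 and the peroxiredoxin Prdx1 (0.34, adjusted p = 0.043). Prdx1 was also called without the replicate (0.21, adjusted p = 0.049, edgeR).

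Quinone and carbonyl detoxification (11 genes) had Nqo1 and the exporter Abcc4 (0.49, adjusted p = 0.038) called higher and the aldehyde reductase Akr1a1 (-0.64, adjusted p = 0.040) called lower, and 2 higher and 0 lower without the replicate. Of the haem and iron genes (9), Fech, which inserts the iron that completes haem, was called higher (0.46, adjusted p = 0.0093). Hmox2, the constitutive haem oxygenase (-0.54, adjusted p = 0.0067), and the ferritin chains Fth1 (-0.57, adjusted p = 0.027) and Ftl1 (-0.80, adjusted p = 0.030) were called lower. Without the replicate 1 was called higher and 2 lower by edgeR.

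NADPH supply (6 genes) had 1 called lower, Pgd of the pentose phosphate pathway (-0.80, adjusted p = 0.046), and 0 without the replicate. The 8 other NRF2 targets had 0 called by edgeR, and without the replicate 1, Sesn2 (0.49, adjusted p = 0.047). The list medians ran from -0.25 for quinone and carbonyl detoxification to 0.17 for the thioredoxin system, against 0.0007 over all genes.

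**Figure D3:**
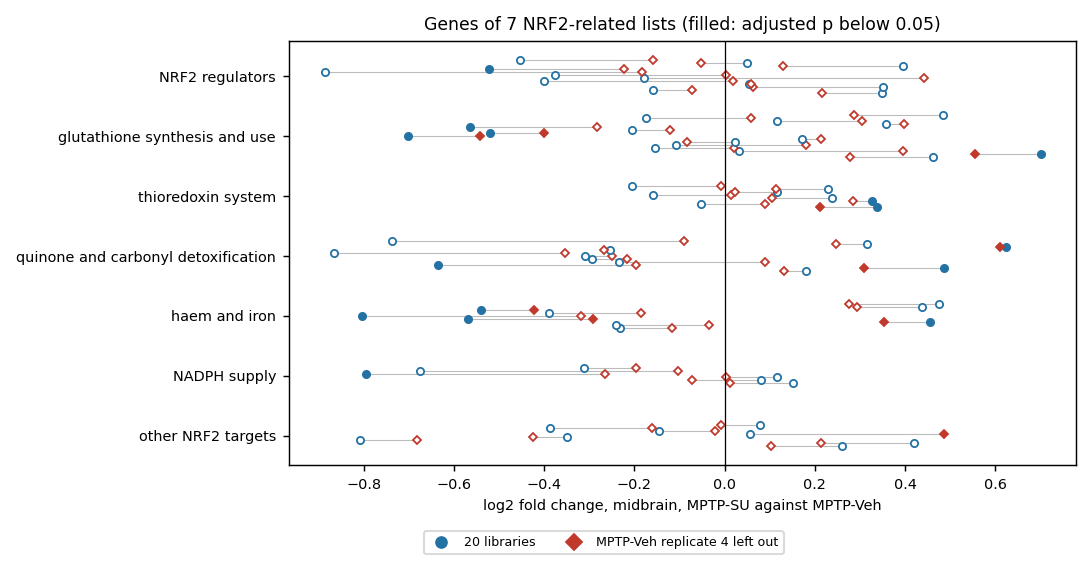
Log2 fold change of MPTP-SU against MPTP-Veh in the midbrain for each tested gene of 7 NRF2-related lists, with 20 libraries (circles) and without MPTP-Veh replicate 4 (diamonds), a line joining the 2 values of a gene. Filled symbols have an adjusted p below 0.05. Genes with negative values move toward 0 without the replicate in most lists, and Nqo1, the rightmost gene of its list, stays at 0.61.

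Some members are also targets of other stress pathways, so 3 further lists were read. The first held Ahr, the aryl hydrocarbon receptor, its partner Arnt and targets of this ligand-activated factor, which also drives Nqo1. Of its 6 tested genes 3 were called higher in MPTP-SU than in MPTP-Veh, where 7.38% of all genes were. They were the member Nqo1, Tiparp (1.23, adjusted p = 0.014) and Ahr itself (0.92, adjusted p = 0.039, edgeR). All 6 lay above 0, with a median of 0.67. The list's summed level was 46.4, 52.1, 55.0 and 29.8 CPM in MPTP-Veh, below all Con libraries (63.0 to 67.3 CPM) and all MPTP-SU libraries (59.2 to 70.2 CPM). With CPM on total counts alone, MPTP-SU and MPTP-Veh overlapped: MPTP-SU replicate 4 (54.72 CPM) lay below MPTP-Veh replicate 3 (57.24 CPM). Without MPTP-Veh replicate 4, Nqo1 and Tiparp (0.93, adjusted p = 0.0027) were called, and Ahr was at 0.64 (adjusted p = 0.053). For MPTP-Veh against Con, 0 of the 6 were called by edgeR and the list's median was -0.66.

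The next list held Atf4 itself and its targets, which respond to amino acid shortage and include Slc7a11. Of its 9 tested genes 2 were called higher (Asns, 0.44, and Psat1, 0.28) and 2 lower (Ddit3, -1.19, and Atf4, -0.36). Over all genes 20.1% were called in either direction. Without MPTP-Veh replicate 4, 3 of 10 tested were called higher and 2 lower, against 14.6% of all genes. Of 8 heat shock genes 0 were called higher and 2 lower, Bag3 (-0.87, adjusted p = 0.0070) and Hsp90aa1 (-0.68, adjusted p = 0.029, edgeR). Without the replicate Bag3 and Hsp90aa1 were at -0.75 and -0.28 and both were called.

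Against MPTP-Veh, the pathway lists had 5 of 69 genes called higher and 3 lower in MPTP-SU+S, where 8.35% of all genes were called in either direction, and 3 higher and 2 lower in MPTP-SU+T, where 5.42% were. Beside Nqo1 and Gclm, Fech was called higher in both (0.46 and 0.37), and Mgst1 (0.54) and Prdx1 (0.40) in MPTP-SU+S. Gstm1 was called lower in both (-0.41 and -0.41), Hmox2 (-0.45) in MPTP-SU+S and Gsta4 (-0.51) in MPTP-SU+T. Tiparp was called higher in both (1.12 and 1.21). Against MPTP-SU, each antagonist group gave 0 of 69 by edgeR.

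In the spinal cord the members did not differ between groups past the threshold. For MPTP-SU against MPTP-Veh 0 of 9 were called by edgeR, DESeq2 or limma-voom and 0 had an unadjusted p below 0.05, with log2 differences from -0.22 to 0.09 and 0.0% of 16682 genes called. The same count of 0 members was found for MPTP-Veh against Con (0.0% of genes called, 1 member at an unadjusted p below 0.05), MPTP-SU against Con (0.0%, 0 members), MPTP-SU+S against MPTP-SU (0.0%, 1 member) and MPTP-SU+S against MPTP-Veh (0.0%, 0 members). It was also found for MPTP-SU+T against MPTP-SU (0.036%, 1 member) and MPTP-SU+T against MPTP-Veh (0.00599%, 2 members), and by all 3 tools throughout. The percentages are of genes called, whereas the members in brackets are at an unadjusted p below 0.05. Of all 16682 genes, 2137 reached that p for MPTP-Veh against Con and 916 for MPTP-SU+S against MPTP-SU (edgeR). For MPTP-SU+T, 2015 reached it against MPTP-SU and 1978 against MPTP-Veh. Of the 69 pathway genes 0 were called in any of the 7 comparisons.

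Nqo1 measured 5.71, 7.31, 6.49 and 5.71 CPM in the Con spinal cord, 7.48, 5.61, 6.94 and 6.96 CPM in MPTP-Veh, and 5.74, 4.89, 6.74 and 5.84 CPM in MPTP-SU. The groups overlapped, and the MPTP-SU to MPTP-Veh difference of -0.22 had a 95% interval from -0.49 to 0.05, which lies below the midbrain value of 0.62. Srxn1 measured 74.7, 83.3, 77.8 and 85.3 CPM in Con, 76.2, 69.6, 80.2 and 77.0 CPM in MPTP-Veh, and 73.6, 81.9, 77.4 and 77.3 CPM in MPTP-SU, again with overlap.

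Gclm measured 29.7, 36.7, 36.0 and 34.3 CPM in Con, 35.8, 44.2, 37.3 and 35.7 CPM in MPTP-Veh, and 33.9, 35.2, 40.1 and 40.3 CPM in MPTP-SU. In MPTP-SU+T it measured 32.5, 32.6, 27.6 and 35.3 CPM, each below all MPTP-Veh libraries. This was the smallest p-value of a member in the spinal cord: the log2 difference from MPTP-Veh was -0.26 (95% interval -0.43 to -0.08), with an adjusted p of 0.283 by edgeR. Against MPTP-SU it was -0.23 (adjusted p = 0.286, edgeR).

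For the other members of the spinal cord group means ran from 28.2 to 30.6 CPM for Nfe2l2, from 28.2 to 32.1 for Keap1, from 60.0 to 65.9 for Gclc, from 67.5 to 72.6 for Txnrd1, from 4.58 to 5.98 for Hmox1 and from 23.1 to 27.7 for Slc7a11. With all 20 libraries of each tissue, the spread between libraries was smaller than in the midbrain: the common dispersion of the counts was 0.00710 in the spinal cord and 0.0512 in the midbrain. In simulated data of the same means, depths and dispersions, changes of 1.5-fold were recovered for 92 of 100 genes in the spinal cord, with 11 false calls. In the midbrain 27 of 100 were recovered, with 6 false calls, both for MPTP-SU against MPTP-Veh. The changed genes had a mean of at least 5 CPM, above Nqo1 and Hmox1 in the midbrain (medians 4.73 and 3.725 CPM). Only 100 genes were changed by 1.5-fold and 100 by 2-fold, where 3349 were called in the real midbrain comparison. The recovered share therefore does not give the power of the real test. The midbrain dispersion and simulation include MPTP-Veh replicate 4 and are not given without it. Leaving it out raised the genes called by edgeR for midbrain MPTP-SU against Con from 208 to 2641.

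**Figure D4:**
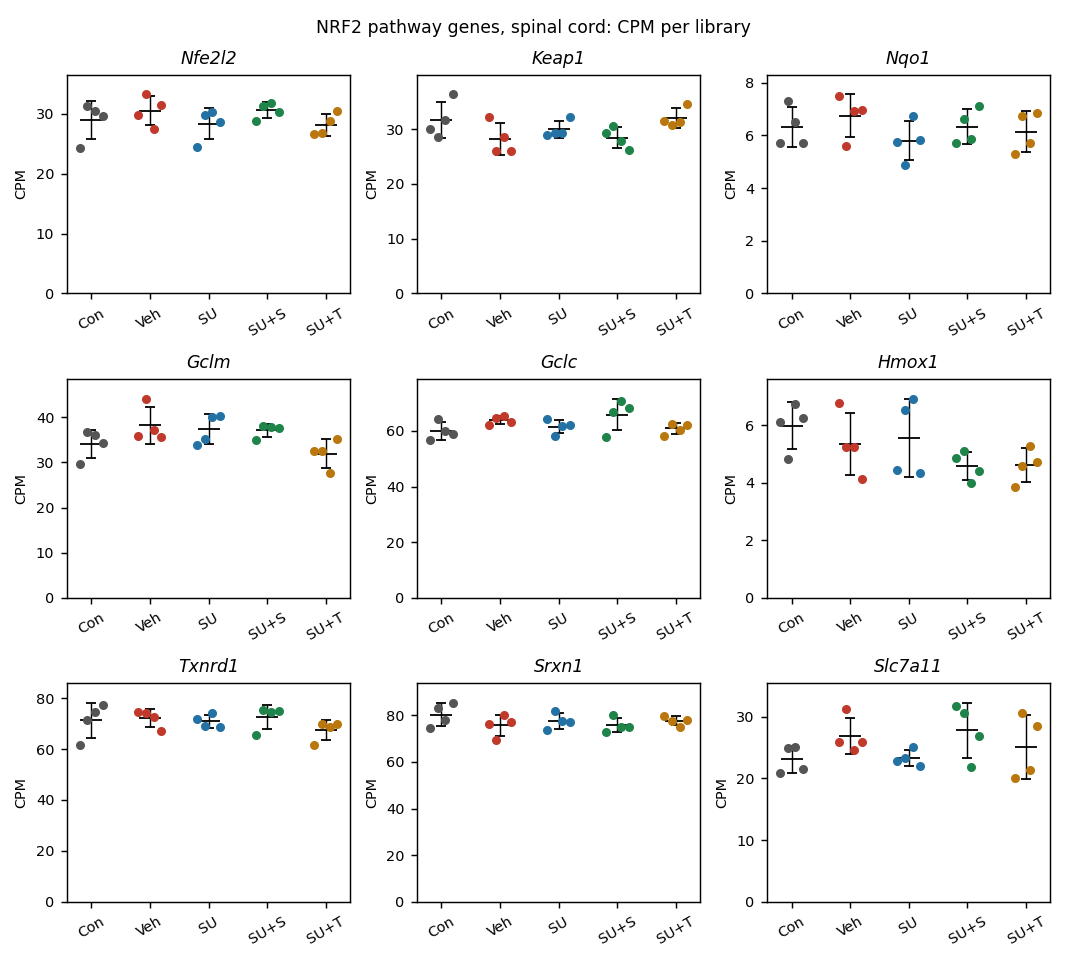
CPM of the 9 NRF2 pathway genes in each spinal cord library (points, 4 per group), with the group mean and SD as bars and the prefix MPTP- left off the group names. The groups overlap for Nqo1, whose means lie between 5.80 and 6.75 CPM, and Gclm is lowest in MPTP-SU+T (mean 32.0 CPM).

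Whether the response to SUEHP differed between the tissues was tested as an interaction over all 40 libraries (17426 genes). The log2 difference of MPTP-SU from MPTP-Veh was lower in the spinal cord than in the midbrain for 3 members. These were Nqo1 (by -0.85, SE 0.16, adjusted p = 0.00158), Gclm (by -0.73, SE 0.17, adjusted p = 0.00489) and Gclc (by -0.52, SE 0.18, adjusted p = 0.0486, edgeR), against 6.11% of genes called lower and 16.8% called in either direction. Without midbrain MPTP-Veh replicate 4 the values were -0.85 (adjusted p = 0.0012), -0.60 (adjusted p = 0.0031) and -0.35 (adjusted p = 0.069). The Gclc call was also lost without midbrain MPTP-SU replicate 1 or 2, without spinal cord MPTP-Veh replicate 2, 3 or 4, and without any spinal cord MPTP-SU replicate, with edgeR adjusted p-values from 0.0513 to 0.0898. Srxn1, with -0.30 (adjusted p = 0.06), Slc7a11, with -0.69 (adjusted p = 0.0767), and Nfe2l2, with -0.50 (adjusted p = 0.147), missed the threshold. Without midbrain MPTP-Veh replicate 4 they were at -0.27, -0.51 and -0.25 (adjusted p = 0.101, 0.177 and 0.240). Without replicate 2 Slc7a11 and Srxn1 passed it (adjusted p = 0.0288 and 0.0369), and without replicate 3 Slc7a11 and Nfe2l2 did (adjusted p = 0.0262 and 0.0347). Slc7a11 also passed without midbrain MPTP-SU replicate 4 (adjusted p = 0.0409), and Srxn1 without replicate 1 (adjusted p = 0.0341, edgeR).

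The tissues also differed in untreated level. Slc7a11 was 2.13-fold lower in the Con spinal cord (20.9, 24.9, 25.1 and 21.5 CPM) than in the Con midbrain (45.7 to 50.1 CPM), with a log2 difference of -1.09 (SE 0.20, adjusted p = 4.84e-05, edgeR). CPM was scaled within each tissue, and the fold comes from the joint fit. Gclm was higher in the spinal cord, by 0.58 (SE 0.12, adjusted p = 0.000202), as was Nqo1, by 0.32 (SE 0.11, adjusted p = 0.0326, edgeR). These were 3 of 9 members called, against 29.8% of all genes, and Srxn1 differed by 0.01. The Nqo1 call was lost without midbrain Con replicate 2 (adjusted p = 0.0664) and without spinal cord Con replicate 2 or 3 (adjusted p = 0.124 and 0.0561, edgeR). In the mean over the 5 groups of each tissue, 8 of 9 members were called, against 66.2% of all genes.

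**Figure D5:**
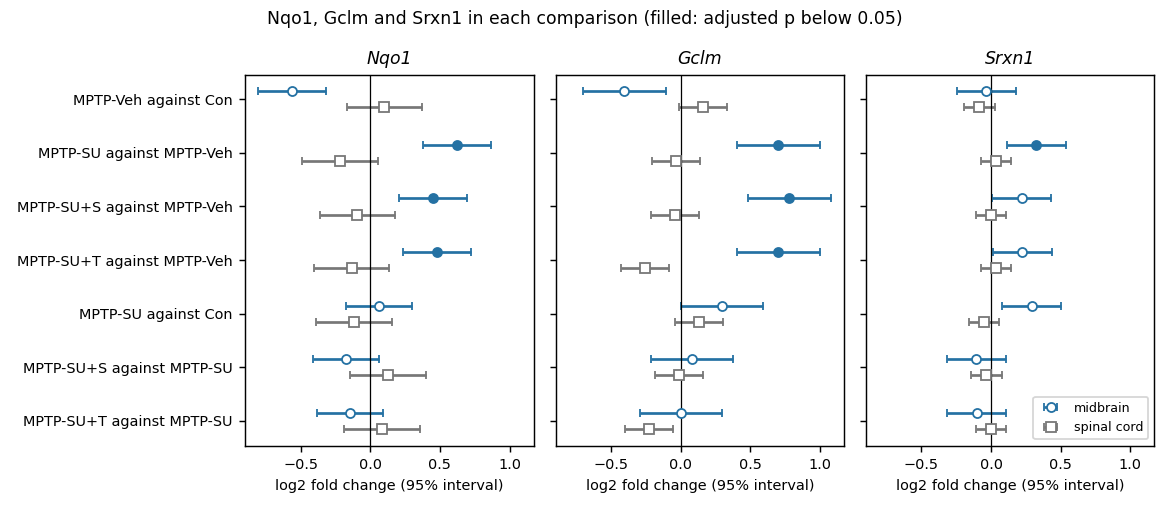
Log2 fold change with its 95% interval for Nqo1, Gclm and Srxn1 in the 7 comparisons of each tissue (circles, midbrain; squares, spinal cord), filled where the adjusted p is below 0.05. In the midbrain Nqo1 is at -0.56 for MPTP-Veh against Con and at 0.62, 0.45 and 0.48 for the 3 SUEHP groups against MPTP-Veh, and no square is filled.

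The genes whose levels most resembled each member were read from Spearman's rho of log2 CPM over the 20 libraries of a tissue, among genes with a mean of at least 5 CPM (11901 in the midbrain). These are descriptions: the libraries share groups, and in the midbrain they share the library apart. In the midbrain Gclm was closest to Epdr1 (rho 0.949, and 0.940 without that library) and Lims1 (rho 0.940), and Nqo1 to the glutamate receptor subunit Grid1 (rho 0.847, and 0.825 without it) and Erc1 (rho 0.80). Srxn1 was closest to Eml1 (rho 0.950), Gclc to Mbnl2 (rho 0.956) and Keap1 to the proteasome subunit Psmb5 (rho 0.956).

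Hmox1 resembled Timm44 (rho 0.853) and the heat shock cochaperone Bag3 (rho 0.821), Nfe2l2 resembled Adgra3 (rho 0.866), Txnrd1 resembled Hyal2 (rho 0.835) and Slc7a11 resembled Add3 (rho 0.919). In the spinal cord Slc7a11 was closest to Igfbp3 (rho 0.887), and Igf2 (rho 0.824), a leptomeningeal marker, was also among its 3. Nqo1 was closest to Far2 (rho 0.790) and the glutaredoxin Glrx (rho 0.779), Keap1 to Gas6 (rho 0.910) and Gclc to the proton pump subunit Atp6v1a (rho 0.941).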

How the data were processed

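Poly(A) RNA from the midbrain and spinal cord was sequenced in paired-end libraries (CORALL kit). The authors used fastp for trimming, STAR for alignment and Salmon for quantification, and the submitters' notes also name GATK and the build GRCm39. The deposited tables hold estimated counts per gene symbol, already rounded to whole numbers and not normalized. Tool versions, and whether molecular identifiers were used, are not given in the sources used here.

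Counts were analysed in R 4.3.3 with edgeR 4.0.16: filterByExpr, TMM and 1 quasi-likelihood model per tissue over its 20 libraries, which tested 16629 midbrain and 16682 spinal cord genes, and 1 model over 40 libraries for tissue differences. A gene was called at a Benjamini-Hochberg adjusted p below 0.05 over all genes. CPM used TMM library sizes, and log2 CPM a prior count of 2. Intervals are 95% intervals of the fit. The MPTP-Veh, MPTP-SU and antagonist comparisons share libraries. Alternatives were DESeq2 1.42.0, limma 3.58.1 (voom with quality weights), other scalings and filters, removal of a GC and length trend, fits of a comparison's libraries alone, a replicate block and leaving out each library. The script was tested on simulated data: of 100 genes changed by 2-fold, 79 were recovered in the midbrain (MPTP-SU against MPTP-Veh, 16435 genes) and 100 in the spinal cord (16554 genes). The changed genes were drawn from those with a mean of at least 5 CPM. The simulated midbrain spread includes that of MPTP-Veh replicate 4.

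The text names all 9 members, genes of pathway lists with an adjusted p below 0.05 (at most 4 per list and comparison, by smallest p) and some of the 3 genes most like each member. The members and lists were chosen with earlier results of these data known. The 10 pathway lists hold 92 genes. GC content and length came from a GRCm38 annotation by gene symbol, and covered 92.0% of the midbrain genes tested. RNA was extracted with different kits according to the labels and the paper.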

Additional observations from a re-analysis of the deposited data

Results flagged for a closer look

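Of 90 groups of 4 libraries (9 members in 10 groups), 9 held a library far from the rest of its group, its gap to the nearest library taking most of the group's range. Chance alone marks about 1 in 20 such groups. Midbrain MPTP-Veh replicate 4 accounted for 3 of them: Keap1 at 83.1 CPM, against 32.3 to 38.4 CPM in the other 3 libraries, Hmox1 at 6.40 CPM, against 3.74 to 4.06 CPM, and Txnrd1 at 39.1 CPM, against 54.5 to 57.5 CPM. The others in the midbrain were Nfe2l2 in Con replicate 4, at 25.7 CPM, and Nqo1 in MPTP-SU+T replicate 3, at 4.99 CPM.

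In the spinal cord, MPTP-SU+S replicate 1 was marked for Gclm, at 34.95 CPM, and for Txnrd1, at 65.65 CPM, where the other 3 libraries measured 74.6 to 75.3 CPM. Txnrd1 in MPTP-SU+T replicate 1, at 61.8 CPM, and Keap1 in MPTP-SU replicate 4, at 32.3 CPM, were also marked.

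The response to SUEHP was called different between the tissues for 3 members by the interaction test: Nqo1 by -0.85 on the log2 scale, Gclm by -0.73 and Gclc by -0.52, spinal cord minus midbrain. The Gclc call was lost without midbrain MPTP-Veh replicate 4 (-0.35, adjusted p = 0.069, edgeR) and without several other single libraries.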

How the results depend on the processing

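Alternatives kept the sign of every called member. Those that leave MPTP-Veh replicate 4 out were chosen after seeing the data, except leaving out each replicate in turn, as were the block and the 1.5-fold threshold for the interaction. In the midbrain, called members for MPTP-SU against MPTP-Veh (3) came to 0 when the 8 libraries of the comparison were fitted alone, 1 with 7 libraries alone (that replicate left out), and 2 to 4 with each replicate left out. Scaling by library size alone also lost the Srxn1 call there (0.29, adjusted p = 0.117, edgeR). For MPTP-Veh against Con (0), DESeq2, quality weights, and GC and length trend removal with 19 libraries each gave 1, and leaving out replicates 0 to 2. For MPTP-SU against Con (0), quality weights and 19 libraries gave 2, and 8 libraries alone and the GC trend with 19 libraries gave 1. For MPTP-SU+S against MPTP-Veh (2), scaling by library size, the same less mitochondrial and haemoglobin genes, no filter, 7 libraries alone and the 1.5-fold threshold gave 1, the GC trend 4, 8 libraries alone 0, and leaving out replicates 1 to 3. For MPTP-SU+T against MPTP-Veh (2), scaling by library size, no filter and the 1.5-fold threshold gave 1, the scaling less mitochondrial and haemoglobin genes and 8 or 7 libraries alone 0, and leaving out replicates 0 to 3. For control tissues (3), the mean of 5 groups gave 8, quality weights 6 and the 1.5-fold threshold 1, and for the interaction (3) leaving out replicates gave 2 to 5. For control tissues quality weights called 7755 of all 17426 genes. Fits of 7 or 8 libraries use fewer samples, and the cause of the other changes was not tested. Most of these member counts stand without the share of all genes called in the same fit. They therefore show no change particular to the members. In the spinal cord every alternative gave 0.

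The libraries share only replicate numbers: deviations of same-numbered libraries correlated by 0.0477 on average in the midbrain (from -0.168 to 0.378, with 10 of 20 libraries closest to their own number) and by 0.00587 in the spinal cord. The replicate block gave 1 called member for MPTP-SU+T against MPTP-Veh and did not move the other counts by more than 1.5 times. Counting error limits Nqo1 (35 to 88 counts per midbrain library) and Hmox1 (47 to 85) more than the other members.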
